A study of Mus musculus with 27 samples.

Results

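In mouse liver, 3581 of 7701 intervals bound by a tagged nuclear SREBP1c also held the deacetylase HDAC3, both in livers given that SREBP1c and in control livers given GFP. These shared sites made up 46.5% of the SREBP1c list. They were chosen by peak positions alone: each is a SREBP1c interval that overlaps by at least 1 bp an interval of the HDAC3 list of GFP livers and one of the HDAC3 list of HA-nSREBP1c livers. The overlap is therefore a description of how the sites were selected and not a result, and no test was run on it.

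C57Bl/6 mice received AAV8, an adeno-associated virus that carries genes into hepatocytes, and their livers were taken 10 days later in the ad lib fed state. Chromatin immunoprecipitation and sequencing (ChIP-seq) with an anti-HA antibody was done in 2 samples from mice given AAV8:HA-nSREBP1c, an HA-tagged nuclear form of SREBP1c. ChIP-seq with an anti-HDAC3 antibody was done in 3 samples from mice given AAV8:GFP and 3 from mice given AAV8:HA-nSREBP1c. The input pool for HA came from GFP livers, and the pool for HDAC3 came from HDAC3-floxed mice given AAV8:Cre, which deletes the floxed gene. SREBP1c positions were thus measured for the virally supplied, tagged protein only, and the GFP livers in which HDAC3 was mapped had none of it. RNA libraries of 6 GFP-injected livers, 2 each from HDAC3-floxed, SCAP-floxed and HDAC3/SCAP-floxed mice on C57Bl/6, were used only to count expressed genes. They held 4747602 to 19316642 counts over genes. Hepatocyte markers were present in all 6: the 9 markers looked for, among them albumin, transthyretin and apolipoprotein B, summed to 160800 to 169300 counts per 1000000 (CPM). Markers of macrophages (12 genes) summed to 288.9 to 621.0 CPM, of endothelial cells (10 genes) to 541.7 to 683.9 and of stellate cells (9 genes) to 454.4 to 633.4. Those of cholangiocytes (6 genes, of which 3 had a mean of at least 1 CPM) summed to 28.1 to 70.2. The livers of the RNA libraries thus held other cells beside hepatocytes. These libraries are not of the ChIP livers, and the peak lists do not tell in which cells a site was bound. There was 1 deposited peak list for each kind of ChIP, with no value per replicate, so no replicate error can be given for any count of sites.

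SREBP1c is a basic helix-loop-helix leucine zipper factor made as a membrane protein of the endoplasmic reticulum. Its amino-terminal part is released by proteolysis, enters the nucleus and activates genes of fatty acid and triglyceride synthesis, and in liver it is induced by feeding and insulin. The nuclear form supplied here bypasses that proteolysis. HDAC3 is the histone deacetylase subunit of the NCoR and SMRT corepressor complexes, which are brought to chromatin by nuclear receptors, REV-ERB among them. In liver, HDAC3 is known for holding down lipid genes in a circadian pattern.

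The lists carry 1 shared set of coordinates. Together they hold 23317 distinct intervals of 200 bp (mouse build mm9), and no 2 of these start closer than 101 bp, within a list or between lists. Each list consists of 4 blocks parted by blank lines, and each block holds exactly the intervals with 1 pattern of presence over the lists. Of the shared sites, 3503 (97.8%) are the same interval in all 3 lists, listed in the same order in each. For these sites the distance between the SREBP1c and HDAC3 peaks is 0 by construction and carries no information.

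The other 78 shared sites overlap a shifted HDAC3 interval in at least 1 of the lists. Of them, 24 are identical to an interval of the GFP list only, 13 to one of the HA-nSREBP1c list only, and 41 to neither. All 41 meet the same HDAC3 interval in both lists. Where the interval was shifted, the shift was 104 to 196 bp (median 146.5, 54 sites) against the GFP list and 103 to 199 bp (median 140.0, 65 sites) against the HA-nSREBP1c list. The range was bounded in advance, since distinct intervals start at least 101 bp apart and overlap only when less than 200 bp apart. The shifts are therefore no measure of the distance between SREBP1c and HDAC3 peaks. The sites just inside the rule have smaller overlaps of 1 to 20 bp, in 11 cases. An example is chr12:105272137-105272336, which is identical to a GFP interval and meets a HA-nSREBP1c interval by 1 bp. The sites just outside, 7 in number, miss by gaps of 4 to 19 bp. An example is chr7:39002639-39002838, which starts 204 bp from its nearest interval in both HDAC3 lists.

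SREBP1c sites differed in whether an HDAC3 interval was listed there. Sites are called without HDAC3 where no interval was listed. The lists hold no signal values, so weaker HDAC3 at such sites cannot be told from none. Besides the 3581 shared sites, 719 SREBP1c intervals overlapped HDAC3 of GFP livers only, 495 overlapped HDAC3 of HA-nSREBP1c livers only, and 2906 (37.7%) overlapped neither. The lists are of unequal size, with 18471 HDAC3 intervals in GFP livers and 13798 in HA-nSREBP1c livers. The shared sites corresponded to 3596 intervals (19.5%) of the larger list and 3584 (26.0%) of the smaller.

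The next shares come from the same presence over the 3 lists that chose the shared sites, so they describe the lists and support nothing further. Of 4694 distinct HDAC3 intervals identical to a SREBP1c interval, 74.6% were in both HDAC3 lists, 15.04% in the GFP list only and 10.3% in the HA-nSREBP1c list only. Of 15616 HDAC3 intervals without SREBP1c, 54.15% were in both lists, 37.2% in the GFP list only and 8.67% in the HA-nSREBP1c list only. The share in both lists was higher with SREBP1c on 20 of 20 chromosomes, at 61.1 to 80.6% against 43.8 to 60.05%. Chromosomes are not replicates, and the spread between livers behind these shares is unknown. Peak height is not in the lists, and its part in these shares was not tested.

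**Figure D1:**
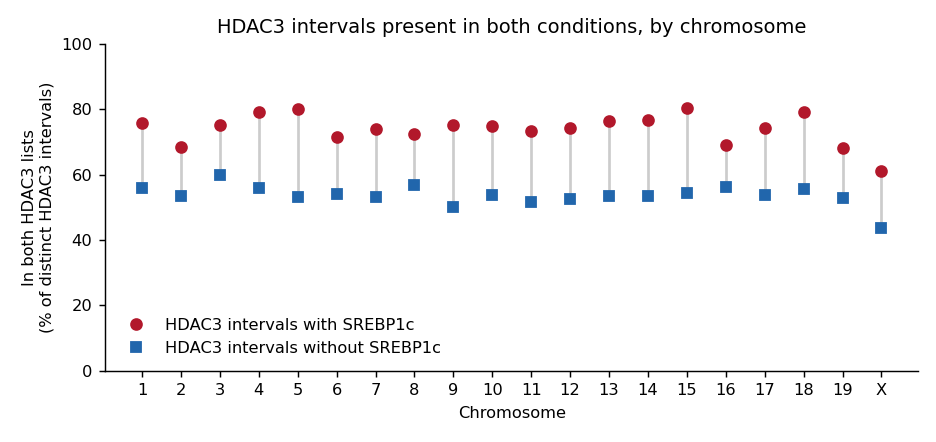
Share of distinct HDAC3 intervals that are in both HDAC3 lists (y axis, percent), by chromosome (x axis), for intervals that coincide with SREBP1c (circles) and those that do not (squares); grey lines join the 2 values of a chromosome. The values come from the list overlap that chose the shared sites and are a description. Every circle lies above its square, with 61.1% against 43.8% on chromosome X and 80.6% against 54.3% on chromosome 15.

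Read from the side of HDAC3, again from that same presence over the lists, the tagged SREBP1c was found at 29.3% of the 11959 intervals present in both conditions. It was at 10.8% of the 6512 intervals of GFP livers only, and at 26.4% of the 1839 intervals of HA-nSREBP1c livers only. The first share exceeded the second on 20 of 20 chromosomes, and the third exceeded the second on 20 of 20 as well. The share at intervals of both conditions exceeded that at intervals of HA-nSREBP1c livers only on 14 of 20.

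All 20 chromosomes in the lists, the autosomes and X, carried shared sites, but X carried few. There were 11 on X, among 61 SREBP1c intervals (18.03%), of which 42 overlapped no HDAC3. On the autosomes, shared sites made up 40.5 to 52.99% of SREBP1c intervals. The highest shares were on chromosomes 15 (52.99%) and 10 (52.2%), and the lowest on 7 (40.5%), 2 (41.9%), 19 (42.6%) and 11 (42.8%). X also carried 140 HDAC3 intervals of GFP livers, where the autosomes carried 576 to 1295. SREBP1c intervals were few on X as well, at 61 against 232 to 577 on the autosomes. Both were thus sparse there in these lists, and what lies behind the low share on X was not tested.

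Genes expressed in liver gave a second scale. Of 22869 genes of the RNA table, 12263 had a mean of at least 1 CPM, taken over all genes in the 6 GFP livers, and 12211 of these were placed on the 20 chromosomes by RefSeq (GRCm38.p6), which was used for the name of the chromosome only. Per 100 expressed genes there were 22.5 to 37.7 shared sites on the autosomes (median 30.8) and 3.08 on X, which has 357 such genes. SREBP1c sites without HDAC3 varied less, at 20.2 to 28.2 per 100 expressed genes on the autosomes (median 24.0), with 11.8 on X. Chromosomes 7 and 11, with 906 and 990 expressed genes, had the fewest shared sites per 100 among the autosomes, at 22.5 and 23.9. Chromosome 7 was the only autosome where shared sites were fewer than SREBP1c sites without HDAC3 (204 against 226).

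**Figure D2:**
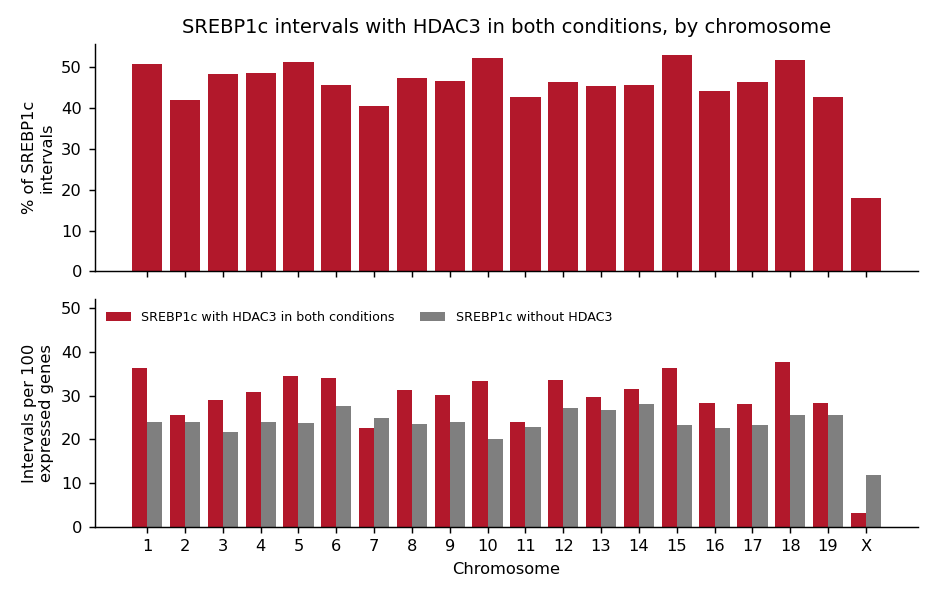
Top: shared sites as percent of the SREBP1c intervals of each chromosome. Bottom: shared sites (red) and SREBP1c intervals without HDAC3 (grey) per 100 genes with a mean of at least 1 CPM in 6 GFP livers. X stands apart with 18.03% in the top panel and 3.08 against 11.8 in the lower one, while the autosomes run from 40.5 to 52.99% and from 22.5 to 37.7.

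Shared sites lay close to other SREBP1c sites. Within 10 kb, measured between starts and leaving out overlapping intervals, 45.6% of shared sites had another SREBP1c interval, against 39.6% of SREBP1c sites with HDAC3 in 1 condition and 31.1% of those without HDAC3. Another shared site lay within 10 kb of 31.9% of shared sites, 23.6% of SREBP1c sites with HDAC3 in 1 condition, 16.7% of SREBP1c sites without HDAC3 and 18.8% of the 8413 HDAC3 intervals of both conditions without SREBP1c. The order of shared sites over SREBP1c sites without HDAC3 held on 20 of 20 chromosomes in both measures. The median distance from a shared site to the nearest other SREBP1c interval was 12.8 kb (quartiles 3.075 and 49.2), and from a SREBP1c site without HDAC3 it was 28.0 kb (6.96 and 104). Where the neighbour is another shared site, it was itself chosen by the HDAC3 lists, so that measure describes the lists and supports nothing further. Chromosomes are not replicates. These are counts over sites of single lists, and the differences were not tested.

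The density of neighbours fell with distance. At 1 to 2 kb from a shared site there were 56.1 other SREBP1c intervals per Mb, and at 200 to 500 kb there were 6.20. Around SREBP1c sites without HDAC3 the density was 33.9 per Mb at 1 to 2 kb and again 6.20 at 200 to 500 kb. The density around shared sites stayed the higher one in each bin between, with 22.1 against 16.1 per Mb at 10 to 20 kb, 16.5 against 13.0 at 20 to 50 kb, 11.1 against 9.52 at 50 to 100 kb and 8.505 against 7.83 at 100 to 200 kb. For HDAC3 intervals of both conditions without SREBP1c, the densities around shared sites and around SREBP1c sites without HDAC3 were 42.45 and 19.4 per Mb at 1 to 2 kb. They were 13.2 and 9.77 at 20 to 50 kb, 7.88 and 7.04 at 100 to 200 kb, and 6.25 and 5.96 at 200 to 500 kb. The HDAC3 densities come from the lists that chose the shared sites and are a description.

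**Figure D3:**
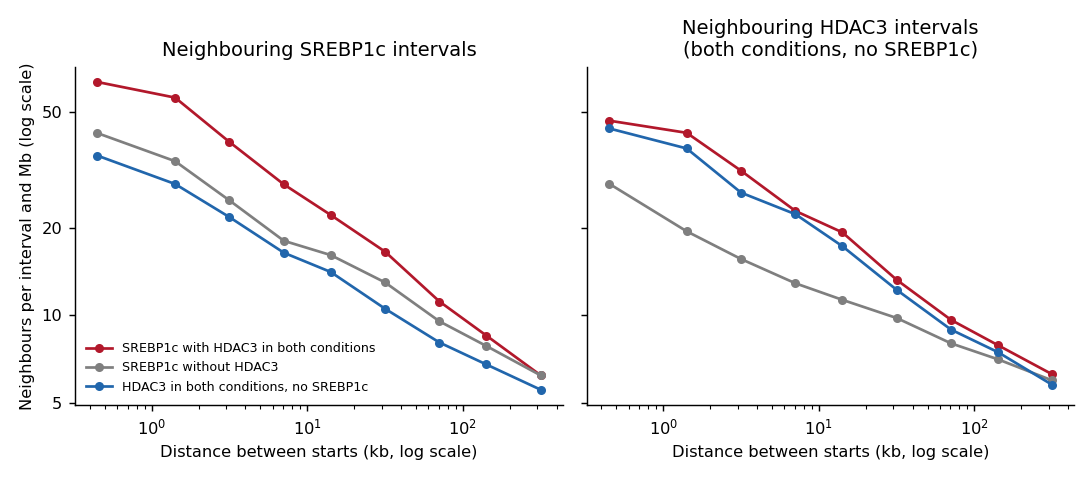
Number of neighbouring intervals per interval and Mb (y axis, log scale) by distance between starts (x axis, kb, log scale; points at the middle of 9 distance bins) for SREBP1c neighbours (left) and for HDAC3 neighbours present in both conditions without SREBP1c (right). Shared sites (red) start at 63.5 and 46.8 per Mb below 1 kb, above SREBP1c sites without HDAC3 (grey, 42.4 and 28.4). HDAC3 intervals of both conditions without SREBP1c (blue) are lowest on the left and close to shared sites on the right, and all lines come near 6 per Mb at 200 to 500 kb. The right panel uses the HDAC3 lists that chose the shared sites.

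Further HDAC3 intervals surrounded the shared sites in both conditions. These neighbours come from the same HDAC3 lists that chose the shared sites and set apart the sites without HDAC3. The shares below therefore describe the lists and support nothing further. A separate HDAC3 interval of GFP livers lay within 10 kb of 68.8% of shared sites, 56.7% of SREBP1c sites with HDAC3 in 1 condition, 43.05% of SREBP1c sites without HDAC3, and 58.9% of HDAC3 intervals of both conditions without SREBP1c. In the list of HA-nSREBP1c livers the shares were 62.4, 49.6, 37.9 and 50.1%. Shared sites had the highest share against the last 2 classes on 20 of 20 chromosomes in both lists. The median distance to the nearest separate HDAC3 interval of GFP livers was 4.28 kb for shared sites, 7.39 kb with HDAC3 in 1 condition, 14.7 kb without HDAC3 and 6.50 kb for HDAC3 intervals of both conditions without SREBP1c. A shared site had on average 1.41 separate HDAC3 intervals of GFP livers within 10 kb, and at most 7.

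**Figure D4:**
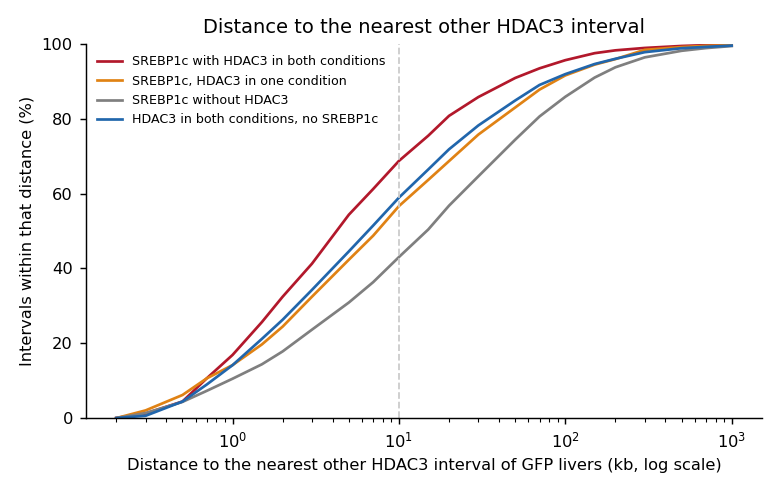
Cumulative share of intervals (y axis, percent) whose nearest separate HDAC3 interval of GFP livers lies within the distance on the x axis (kb, log scale); the dashed line marks 10 kb. At that line shared sites (red) are at 68.8%, HDAC3 intervals without SREBP1c (blue) at 58.9%, SREBP1c sites with HDAC3 in 1 condition (orange) at 56.7% and SREBP1c sites without HDAC3 (grey) at 43.05%. The HDAC3 list measured here also served to choose the shared sites, so the curves are a description.

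By HDAC3 class, the separation was not uniform, and these shares too come from the lists that chose the shared sites. HDAC3 intervals of both conditions that lack SREBP1c lay within 10 kb of 41.1% of shared sites and 23.7% of SREBP1c sites without HDAC3. Intervals in the GFP list only lay near 26.7 and 17.7% of them. Intervals in the HA-nSREBP1c list only lay near 5.89 and 5.64%, and this order held on 11 of 20 chromosomes. Set beside HDAC3 intervals of both conditions without SREBP1c, shared sites were at 41.1 against 37.6% for the first of these classes, higher on 13 of 20 chromosomes, and at 26.7 against 25.15% for the second, higher on 11 of 20. For intervals in the HA-nSREBP1c list only, shared sites were at 5.89 against 4.68%, higher on 15 of 20. SREBP1c sites with HDAC3 in 1 condition were at 31.55, 23.5 and 5.93% for these classes in the same order. Shared sites were higher than those on 17, 14 and 9 of 20 chromosomes.

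Most SREBP1c neighbours of shared sites were shared sites. The class of a neighbour comes from the same HDAC3 lists that chose the shared sites, so these shares describe the lists and support nothing further. Of 2624 SREBP1c neighbours within 10 kb, counted once for each site they neighbour, 60.7% were shared sites and 24.4% had no HDAC3, where the whole SREBP1c list has 46.5 and 37.7%. The 3431 SREBP1c neighbours of HDAC3 intervals of both conditions without SREBP1c had nearly the same make-up, at 59.7 and 25.9%, so it was not particular to shared sites. Of 1351 SREBP1c neighbours of sites without HDAC3, 47.3% were shared sites and 34.8% had no HDAC3.

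HDAC3 close to shared sites was more often in both lists than HDAC3 farther away. Presence in both HDAC3 lists also chose the shared sites, so these shares describe the lists and support nothing further. Of 2684 HDAC3 intervals without SREBP1c whose nearest shared site was 0.2 to 10 kb away, 58.8% were in both lists, 34.5% in the GFP list only and 6.74% in the HA-nSREBP1c list only. At 10 to 100 kb, 53.5% were in both lists. At 100 to 500 kb from the nearest shared site there were 4571, at 52.7, 38.0 and 9.34%. Within 0.2 to 10 kb of a SREBP1c site without HDAC3 there were 1537, of which 53.03% were in both lists, near the value far from shared sites. At 100 to 500 kb from such a site the share was 55.3%. The split was not made around HDAC3 intervals of both conditions without SREBP1c, so it cannot be called particular to shared sites. The spread of these shares between livers is unknown.

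Many shared sites formed groups. When sites were chained wherever consecutive starts were at most 10 kb apart, 1309 of them (36.6%) fell into 559 groups of 2 or more, and 131 groups held 3 or more. There were 428 pairs, 90 groups of 3, 30 groups of 4, 7 of 5, 2 of 6, 1 of 7 and 1 of 9. SREBP1c sites without HDAC3, chained in the same way among themselves, were in groups in 14.6% of cases, and HDAC3 intervals of both conditions without SREBP1c in 38.2%. These shares also move with the number of intervals in each class, 2906 and 8413. Chaining also joined sites that overlap each other, which the neighbour shares above left out. With overlapping intervals left out, 31.9% of shared sites had another shared site within 10 kb. For HDAC3 intervals of both conditions without SREBP1c, 37.6% had another of that class within 10 kb.

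The largest group, with 9 shared sites, spans 34139 bp at chr1:90150193-90184331. Its sites follow each other at distances of 885 to 9371 bp. In it or within 10 kb of it there were 2 other SREBP1c intervals, 1 with HDAC3 in the GFP list only and 1 without HDAC3. No HDAC3 interval without SREBP1c lay there, so every HDAC3 interval of this stretch coincided with SREBP1c.

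The next group holds 7 shared sites in 15783 bp at chr15:85547537-85563319. Its last pair of sites starts 188 bp apart, so these overlap. A further group of 5 sites spans 3371 bp at chr15:85601761-85605131, on the same chromosome and close by. The 1 Mb window that holds both, chr15:85000001-86000000, has 19 shared sites among 24 SREBP1c intervals.

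There were 2 groups of 6. The group at chr8:129244502-129260961 spans 16460 bp and includes sites 117 and 299 bp apart. It lies in the window with the most shared sites of all, chr8:129000001-130000000, with 24 shared sites among 34 SREBP1c intervals, 50 HDAC3 intervals of GFP livers and 48 of HA-nSREBP1c livers. The group at chr3:89085177-89109736 spans 24560 bp, and 3 HDAC3 intervals of both conditions without SREBP1c lie in it or within 10 kb of it.

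**Figure D5:**
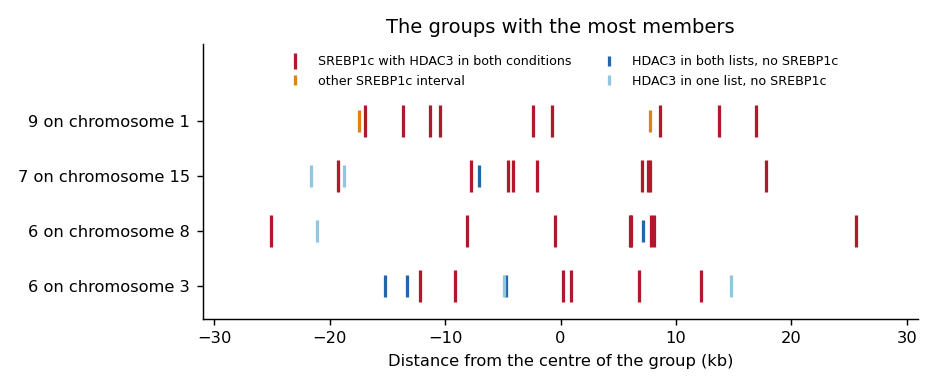
Positions of intervals (midpoints) around the 4 groups with the most shared sites, as distance in kb from the centre of each group, out to 30 kb; red marks are shared sites, and the other colours are the remaining SREBP1c and HDAC3 intervals. The number beside each row counts the sites chained at 10 kb, so red marks farther out, as on chromosomes 15 and 8, are shared sites outside the group.

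Seen over 1 Mb windows, shared sites were spread widely. Of 2024 windows with an interval of any list, 1161 (57.4%) held a shared site, with a median of 2. The 34 windows with 10 or more held 429 of the shared sites (11.98%). After the window on chromosome 8, the fullest were the one on chromosome 15, chr17:46000001-47000000 with 18 and chr13:34000001-35000000 with 17.

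Shared sites were less often isolated than the other classes. Isolation was counted over all the lists, including those that chose the shared sites, so it is a description. Of all 3581, 903 (25.2%) had no other interval of any list within 10 kb and 95 (2.65%) had none within 100 kb. The matching shares were 47.0 and 9.26% for SREBP1c sites without HDAC3, 34.7 and 6.18% for those with HDAC3 in 1 condition, and 36.1 and 5.84% for HDAC3 intervals of both conditions without SREBP1c. The most isolated shared site, chr3:110905666-110905865, was 2187 kb from the nearest other interval. These distances use the lists' own coordinates only. Gene annotation, motifs and base sequence of the sites were not analysed here, since the gene annotation used here is of another build than mm9.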

How the data were processed

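The peak lists were deposited by the authors as positions of 200 bp intervals with no header and no score or other measure of signal. The submitters' processing notes list Bowtie, HOMER and the build mm9. Any merging of lists or pooling of replicates was not given in the sources used here. RNA values were deposited as whole-number counts per RefSeq transcript, which the values show not to be normalized. The authors marked 1 transcript per gene, and these 22869 of 28644 were used. Of the columns of per-sample values, 28 were not used. CPM is a gene's count over the library's total across these genes, times 1000000. A gene was placed on a chromosome by RefSeq accession or symbol (22712 genes, 99.3%).

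Distances were computed between starts of intervals with Python 3.11.15, numpy 2.4.6 and pandas 2.3.3, and the functions were tested on simulated data. Starts are printed 1-based. HDAC3 classes of distinct intervals, also where they are counted as neighbours, use identity of coordinates. SREBP1c classes use overlap, and so does the compared class of 8413 HDAC3 intervals of both conditions without SREBP1c. As neighbours, by identity, that class holds 8456 intervals. No test was run, since each kind of ChIP has 1 list. Read depth of the ChIP samples is unknown. The sites and the distances were chosen with earlier results of these data known.

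The planned comparisons with gene starts, with expression in the knockouts and with promoter motifs were not run, nor were their named genes and gene lists used beyond cell type markers, because the RNA table holds no coordinates and the annotation used here is not on mm9. RNA of the 11 knockout libraries was not used here.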

Additional observations from a re-analysis of the deposited data

How the results depend on the processing

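A minimum overlap of 100 bp, midpoints at most 50 bp apart, or identical intervals only each left 3503 shared sites in place of 3581, the same number because distinct intervals start at least 101 bp apart. Under these settings the shares with a neighbour within 10 kb were 31.6% for another shared site, 69.0% for HDAC3 of GFP livers around shared sites and 43.3% around SREBP1c sites without HDAC3. All of them keep the same 97.8% of the shared sites, so the shares could hardly move. The shares stayed within 95% binomial (Wilson) intervals. Such intervals take each site as an independent draw, which grouped sites are not, and they do not cover the spread between livers. With a distance of 5 kb these shares were 22.3, 54.4 and 30.9%, and with 50 kb 58.3, 90.9 and 74.4%, lower and higher because the distance is. The share of HDAC3 intervals in both lists was 75.1% with and 54.3% without SREBP1c when intervals were matched by an overlap of 1 bp, and 74.7 and 54.2% without chromosome X. With a mean of at least 0.5 or 5 CPM, shared sites per 100 expressed genes on X were 2.79 and 4.38, against autosomal medians of 29.3 and 39.2. The settings other than the first 2 named, and those 2 for the shares, were chosen after seeing the data. No paired analysis was possible because no result comes from a test. Other distances from gene starts, other tools, filters and controls for the knockouts' expression, and motif distances were not run, for want of coordinates of genes on mm9.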
